A study of Homo sapiens with 6 samples.

Results

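The genes of cholesterol and fatty acid synthesis were examined in H146 cells, an established small-cell lung cancer (SCLC) cell line of neuroendocrine type, after knockdown of *KIFC1*. The set was given by name and held 32 genes of the sterol regulatory element-binding protein (SREBP) pathway, of sterol synthesis and of fatty acid synthesis. All 32 were among the 28395 genes of the count table, and all 32 passed the filter on low counts. Both groups carry the cell line label NCI-H146 (NIH-H146 in the sample titles) and were sampled on day 2 after transfection, with 3 libraries per group that the labels call biological replicates 1 to 3. The control siRNA group (genotype label WT) received a scrambled siRNA, and the KIFC1 siRNA group (genotype label KIFC1 knockdown) received a *KIFC1* siRNA, with library names beginning KD_2. A single cell line was sequenced. The labels do not say which *KIFC1* siRNA sequence was used, or that it was the same in all libraries. An effect of the siRNA sequence and an effect of *KIFC1* loss therefore cannot be told apart here.

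The libraries held 15392374 to 17754458 counts, and mitochondrial genes took 8.34% to 13.1% of them. *KIFC1* itself was counted 14, 4 and 14 times with control siRNA and 1, 1 and 0 times with KIFC1 siRNA, and 87.9% of the 32-base words of its transcript also occurred on alternate sequences of GRCh38. The control mean CPM lay 3.13-fold above the level of 3 counts, taken as the floor of a KIFC1 siRNA library. This value rests on few reads and carries no sampling error. The fall had an adjusted p of 0.0739 without and 0.00459 with the replicate number as a block (edgeR's quasi-likelihood test, Benjamini-Hochberg adjustment). Of 12 neuroendocrine marker genes, 11 exceeded 1 CPM (the usual count scaled to library size) in every library, and *NEUROD1* did not. Their summed level was 2785 to 2969 CPM with control siRNA and 2999 to 3327 CPM with KIFC1 siRNA. The 12 markers of non-neuroendocrine or stromal cells summed to 23.4 to 32.4 CPM and 28.5 to 34.2 CPM, and 5 of them passed 1 CPM in every library. The part of this shift in the results was not tested.

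Cholesterol is built from acetyl-CoA through mevalonate, farnesyl diphosphate, squalene and lanosterol, and fatty acids from the same acetyl-CoA through malonyl-CoA. The transcription factors SREBP-1 (*SREBF1*) and SREBP-2 (*SREBF2*) turn on the genes of both routes. SCAP carries them from the endoplasmic reticulum to the Golgi for cleavage when sterols are scarce, and INSIG1 and INSIG2 hold SCAP back when sterols are plentiful. SREBP-1c is known mainly for the fatty acid genes and SREBP-2 for the sterol genes.

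In the control libraries the set ranged widely in level. Levels of different genes are compared as CPM per kilobase of the GENCODE canonical transcript, given as mean ± SD of the 3 libraries. *FDFT1*, which makes squalene, was the most abundant (121 ± 10.1, n = 3). *ACLY*, which makes cytosolic acetyl-CoA from citrate, followed (112 ± 3.62, n = 3), and its range overlapped that of *FDFT1*. *SCD*, the desaturase that makes oleate, came next (97.2 ± 5.74, n = 3). *SREBF2* (49.9 ± 2.78) lay above *SREBF1* (6.70 ± 0.467), with no overlap of their libraries (n = 3). At the low end were *ELOVL6*, an elongase of palmitate (3.30 ± 0.319), *LSS*, which closes squalene epoxide to lanosterol (2.199 ± 0.504), and *ACACA*, which makes malonyl-CoA (0.561 ± 0.353, n = 3 each). For *ACACA* the control libraries held 74, 45 and 176 reads and the KIFC1 siRNA libraries 55, 60 and 98. For *LSS* they held 166, 140 and 248 reads, against 341, 154 and 178. Of the 32-base words of the *ACACA* and *LSS* transcripts, 83.8% and 78.7% also occurred on alternate sequences of GRCh38. For the other 30 genes this share was at most 7.56%. How reads with several alignments were counted is not given in the sources used here, and the part of this in the low counts was not tested.

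**Figure D1:**
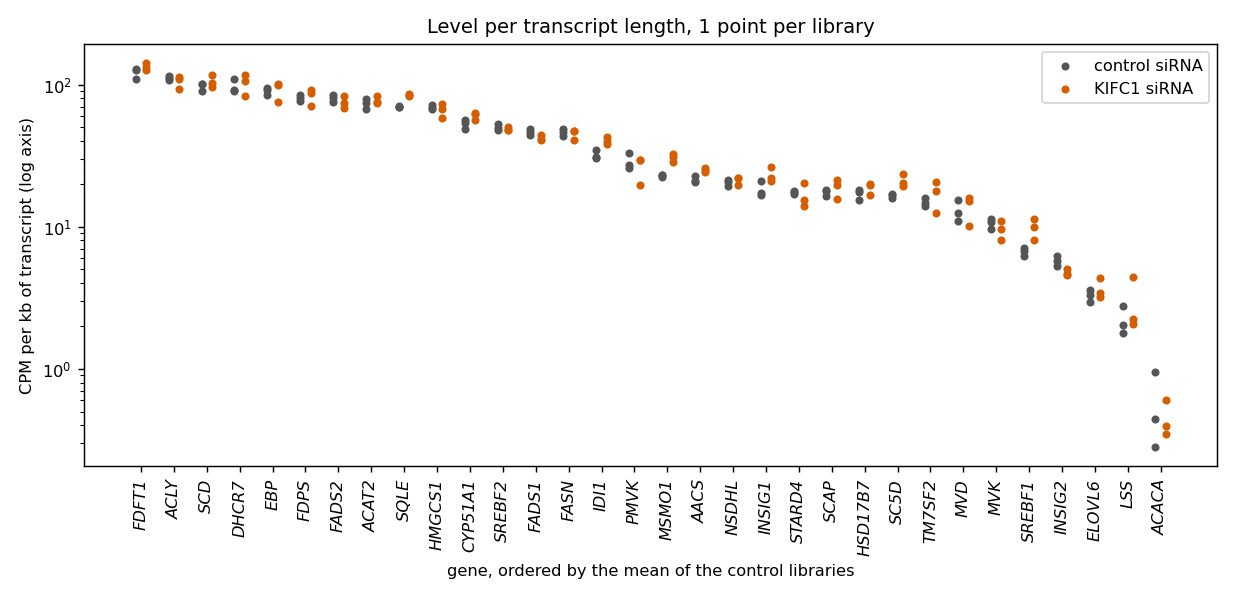
Level of the 32 genes in CPM per kilobase of transcript (log axis), ordered by the control mean, with 1 point per library and the groups side by side. *FDFT1* and *ACLY* lead, *SCD* and *DHCR7* follow at near equal levels, *LSS* and *ACACA* sit lowest, and the 2 groups lie close together for nearly every gene.

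After knockdown of *KIFC1*, 4 sterol enzymes and the regulators *SREBF1* and *INSIG1* were modestly higher, and passed when the edgeR model held a term for the replicate number (the block), not when it did not. The enzymes of fatty acid synthesis did not pass. The fitted log2 fold changes of KIFC1 siRNA against control siRNA ran from -0.33 (*ACACA*) to 0.55 (*SREBF1*). Their median was 0.08, beside 0.01 for all 14777 genes tested, whose quartiles were -0.12 and 0.13. With 1 library left out the median of the 32 was 0.0145 (without KIFC1 siRNA replicate 1) to 0.156 (without KIFC1 siRNA replicate 3). Without the replicate number in the model, 0 of the 32 had an adjusted p under 0.05, where 0.697% of all genes did. By the unadjusted p (under 0.05) of this edgeR fit, 7 of the 32 were higher (21.9%) and 1 lower, beside 4.72% and 4.55% of all genes. Libraries with the same replicate number deviated together, and with that number as a block 6 genes of the set rose at an adjusted p under 0.05 (18.8%) and 0 fell, beside 2.75% of all genes higher and 3.07% lower. The 6 were *SREBF1*, *INSIG1*, *IDI1*, *SQLE*, *MSMO1* and *SC5D*. By DESeq2's Wald test without the block, *SREBF1* and *MSMO1* passed, as they did in edgeR without the block when KIFC1 siRNA replicate 3 was left out. Of all genes, 126 and 194 were higher in these 2 fits. Without both libraries of number 1, 2 or 3, the blocked edgeR fit had 0, 1 (*SREBF1*) and 10 genes of the set higher. The same fits had 142, 212 and 944 of all genes higher, so the background moved as well. In bulk RNA, fewer cells of a kind and less RNA per cell cannot be told apart. The set was proposed with results of these libraries known, so no test was made of the set as a whole.

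Each replicate number holds 1 library of each group, so the difference could also be read 3 times. Within all 3 numbers, 14 of the 32 were higher after *KIFC1* knockdown (43.8%) and 3 lower, beside 19.5% and 19.4% of all genes. By the stricter reading that every KIFC1 siRNA library lies beyond every control library, 6 genes were higher (18.8%) and 2 lower, beside 7.99% and 7.52% of all genes. The 6 higher were *SREBF1*, *AACS*, *IDI1*, *SQLE*, *MSMO1* and *SC5D*, and the 2 lower were *INSIG2* and *FADS1*.

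**Figure D2:**
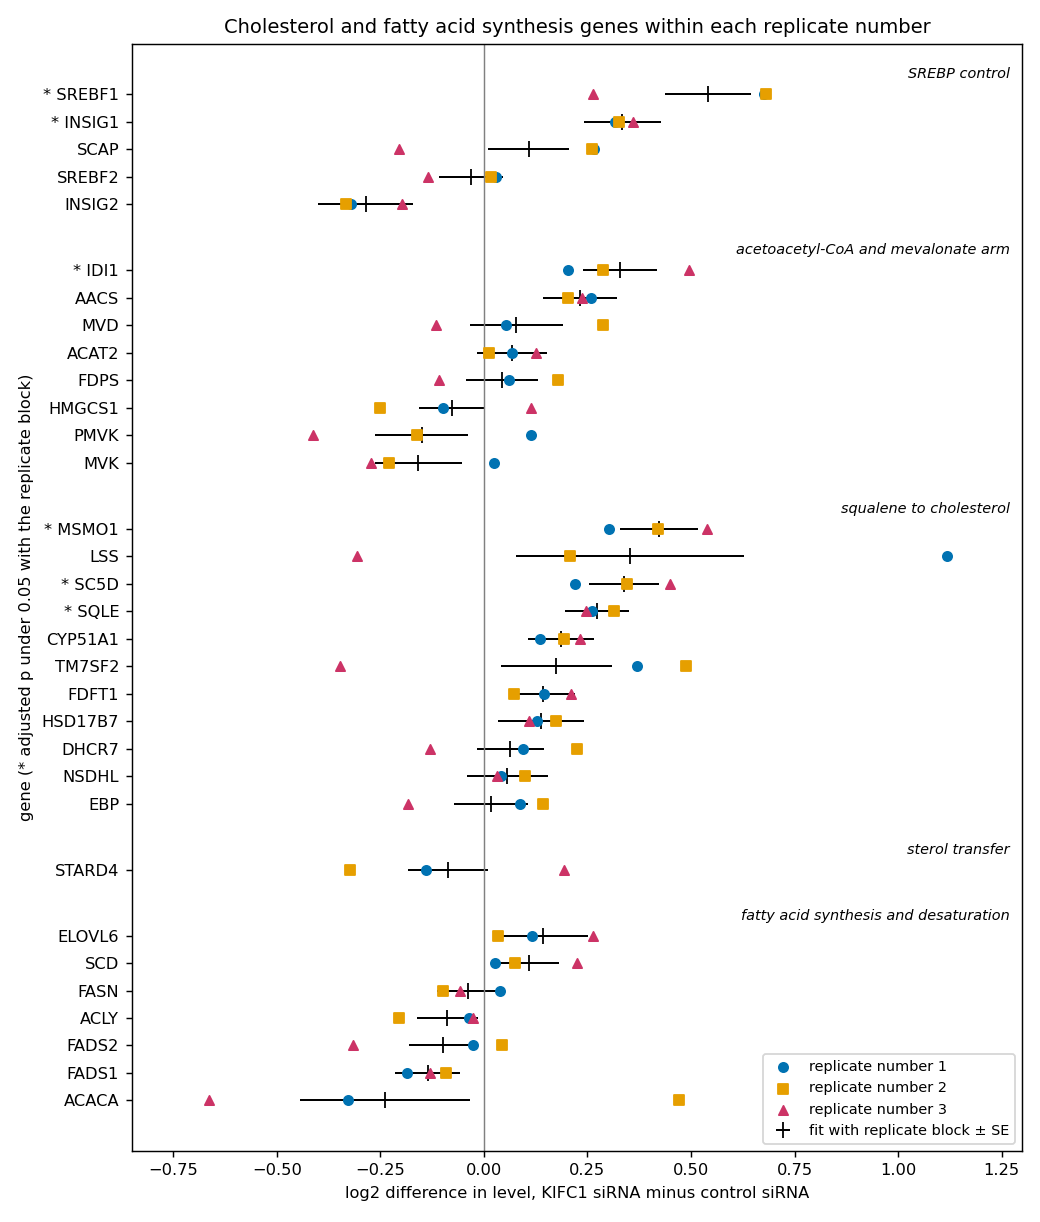
Log2 difference in level (KIFC1 siRNA minus control siRNA) of each gene within replicate numbers 1, 2 and 3, grouped by role, with the fit that has the replicate number as a block (tick, ± SE). Asterisks mark the 6 genes with an adjusted p under 0.05 in that fit, and all 11 genes from squalene to cholesterol have a positive fit.

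Among the 5 genes of SREBP control, *SREBF1* and *INSIG1* rose with the block and *SREBF2* and *SCAP* did not pass. *SREBF1* (NCBI gene ID 6720, chr17:17811334-17836986, GRCh38.p14) was at 35.0, 30.4 and 33.1 CPM with control siRNA and at 55.9, 48.9 and 39.7 CPM with KIFC1 siRNA. The groups did not overlap, and KIFC1 siRNA replicate 3 was the lowest of its group. The log2 fold change was 0.55 ± 0.14 (standard error, SE; adjusted p = 0.114) and with the block 0.54 ± 0.10 (SE; adjusted p = 0.000931 in edgeR). *SREBF2* was at 257.6, 249.1 and 277.4 CPM, and at 262.8, 251.9 and 252.6 CPM, with a log2 fold change of -0.03 ± 0.10 (SE; adjusted p = 0.967). The 3 KIFC1 siRNA values of *SREBF2* lay inside the control range.

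*INSIG1*, itself an SREBP target (NCBI gene ID 3638, chr7:155297878-155310235), was at 61.0, 48.5 and 49.9 CPM with control siRNA and 75.9, 60.9 and 64.1 CPM with KIFC1 siRNA. Replicate 1 was the highest of both groups, and the groups overlapped by the value of KIFC1 siRNA replicate 2 alone. The rise was similar in size within the 3 numbers (0.32, 0.33 and 0.36 on the log2 scale). The log2 fold change was 0.33 ± 0.13 (SE; adjusted p = 0.413) and with the block 0.33 ± 0.09 (SE; adjusted p = 0.0260 in edgeR), and in DESeq2 with the block it did not pass (adjusted p = 0.0506). Its paralogue *INSIG2* was at 22.3, 20.5 and 18.9 CPM, and at 17.8, 16.3 and 16.5 CPM. All 3 KIFC1 siRNA libraries were below the control libraries, with a log2 fold change of -0.29 ± 0.13 (SE), an unadjusted p of 0.0423 and an adjusted p of 0.511, or 0.165 with the block, in edgeR. *SCAP* was higher within numbers 1 and 2 and lower within number 3 (0.26, 0.26 and -0.20 on the log2 scale).

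Ratios of 2 genes within a library do not depend on its depth, and 2 such ratios were taken after the values had been seen. The ratio of *SREBF1* to *SREBF2* counts was 0.126 ± 0.00889 with control siRNA and 0.188 ± 0.0284 with KIFC1 siRNA (SD, n = 3). That of *INSIG1* to *INSIG2* counts was 2.58 ± 0.195 and 3.96 ± 0.268 (SD, n = 3). Neither ratio overlapped between the groups. The exact permutation test on the log ratios, two-sided, gave p = 0.1 for each (0.1 after adjustment over both). That is the smallest p that 3 against 3 libraries allow. As the genes were picked with their values known, the test adds no support to the separation of the groups.

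The start regions of these regulators are shown because *SREBF1* and *INSIG1* passed with the block and *SREBF2* did not, together with that of *MSMO1*, the sterol enzyme with the largest blocked rise among those that passed. The windows are RefSeq promoters of GRCh38.p14, from 250 bases before to 50 after the start site, written 5′ to 3′ on the gene's strand. They are *SREBF1* (minus strand, chr17:17836937-17837236), *SREBF2* (plus strand, chr22:41832855-41833154), *INSIG1* (plus strand, chr7:155297628-155297927) and *MSMO1* (plus strand, chr4:165327419-165327718). Capitals mark matches on either strand to the sterol response element TCACNCCAC, the E-box CACGTG, the CCAAT box and the GC box GGGCGG. Neighbouring matches can overlap or join. Only the first window listed for each gene is shown, and other start sites of a gene are not. Counts per gene do not separate transcripts that begin at different start sites.

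*SREBF1*: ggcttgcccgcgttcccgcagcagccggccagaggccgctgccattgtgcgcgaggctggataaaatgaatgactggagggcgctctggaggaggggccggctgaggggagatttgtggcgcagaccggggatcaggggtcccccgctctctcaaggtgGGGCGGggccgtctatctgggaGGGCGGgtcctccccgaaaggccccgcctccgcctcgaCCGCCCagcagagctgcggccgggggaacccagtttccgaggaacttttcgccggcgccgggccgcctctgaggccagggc
*SREBF2*: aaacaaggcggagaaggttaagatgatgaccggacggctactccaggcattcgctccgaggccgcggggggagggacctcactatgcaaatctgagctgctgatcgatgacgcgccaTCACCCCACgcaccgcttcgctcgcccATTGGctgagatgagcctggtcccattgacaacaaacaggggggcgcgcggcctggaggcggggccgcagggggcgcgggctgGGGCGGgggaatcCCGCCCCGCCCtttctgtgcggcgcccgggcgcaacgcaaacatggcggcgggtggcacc
*INSIG1*: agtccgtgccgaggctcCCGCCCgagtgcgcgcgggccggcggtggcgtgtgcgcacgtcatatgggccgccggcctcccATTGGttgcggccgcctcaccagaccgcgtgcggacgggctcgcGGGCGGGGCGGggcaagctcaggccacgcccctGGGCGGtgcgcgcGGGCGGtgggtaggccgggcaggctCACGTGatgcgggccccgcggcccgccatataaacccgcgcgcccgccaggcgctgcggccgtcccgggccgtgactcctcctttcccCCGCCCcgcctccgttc
*MSMO1*: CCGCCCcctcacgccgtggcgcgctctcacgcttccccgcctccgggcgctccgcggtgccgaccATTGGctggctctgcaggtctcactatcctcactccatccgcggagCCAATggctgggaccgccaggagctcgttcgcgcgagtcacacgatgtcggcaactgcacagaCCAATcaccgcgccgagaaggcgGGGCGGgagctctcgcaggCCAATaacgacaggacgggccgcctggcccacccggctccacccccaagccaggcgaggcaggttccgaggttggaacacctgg

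The sterol response element letters occurred once in the *SREBF2* window and in none of the other 3 shown. Windows were found for 28 of the 32 genes, 38 windows in all, and all were searched. *SREBF2* was the only one of the 28 with these exact letters, which 1.13% of all 35116 windows hold. Sites with other letters, or outside the windows, were not looked for. CCAAT was found in 20 of the 28 genes (34.6% of all windows), among them *SREBF2*, *INSIG1* and *MSMO1*. The GC box was found in 27 of the 28 (45.0% of all windows), and the E-box in 4, *INSIG1*, *LSS*, *SC5D* and *SCAP* (7.26% of all windows). Some genes have several windows, so the shares of genes and of windows are not like for like.

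Of the 8 genes from acetoacetyl-CoA to farnesyl diphosphate, *IDI1* rose with the block and the other 7 did not pass. *IDI1*, which interconverts the 2 isoprenoid building blocks (NCBI gene ID 3422, chr10:1039152-1056704), was at 94.7, 85.4 and 83.3 CPM with control siRNA and 109.1, 104.2 and 117.4 CPM with KIFC1 siRNA. Every KIFC1 siRNA library was above every control library, and the difference was widest within number 3 (0.20, 0.29 and 0.49 on the log2 scale). The log2 fold change was 0.33 ± 0.11 (SE; adjusted p = 0.274) and with the block 0.33 ± 0.09 (SE; adjusted p = 0.0224 in edgeR).

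*AACS*, which activates acetoacetate for lipid synthesis, was at 68.1, 73.8 and 67.4 CPM with control siRNA and 81.5, 84.9 and 79.4 CPM with KIFC1 siRNA. The groups did not overlap, and the log2 fold change was 0.23 ± 0.10 (SE), with an unadjusted p of 0.0415 and an adjusted p of 0.506, or 0.140 with the block, in edgeR. *HMGCS1*, which makes HMG-CoA and is a classical SREBP-2 target, went both ways. It was at 387.2, 368.2 and 360.8 CPM, and at 361.8, 309.2 and 390.7 CPM, and its log2 fold change was -0.07 ± 0.11 (SE; adjusted p = 0.913). *MVK*, the mevalonate kinase, was at 30.8, 32.1 and 27.4 CPM, and at 31.3, 27.3 and 22.7 CPM, the lowest value being that of KIFC1 siRNA replicate 3 (log2 fold change -0.15 ± 0.14, SE, adjusted p = 0.839). *ACAT2*, an acetoacetyl-CoA thiolase, *PMVK* and *MVD*, the kinase and decarboxylase after *MVK*, and *FDPS*, the farnesyl diphosphate synthase, had log2 fold changes between -0.14 and 0.09. *MVK*, *PMVK*, *MVD* and *FDPS* were all lower within number 3. The median of the 8 genes was 0.06, and without 1 library it lay between -0.0072 (without KIFC1 siRNA replicate 1) and 0.13 (without KIFC1 siRNA replicate 3).

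The 11 genes from squalene to cholesterol had positive log2 fold changes throughout, from 0.03 (*EBP*) to 0.42 (*MSMO1*), with a median of 0.19, which was 0.0981 without KIFC1 siRNA replicate 1. Of all genes tested, 52.1% had a positive value. With the block 3 of the 11 rose and 0 fell, beside 2.75% and 3.07% of all genes. Within all 3 replicate numbers 7 were higher and 0 lower, beside 19.5% and 19.4%. In numbers 1 and 2 all 11 were higher, and in number 3 it was 7, the others being *LSS*, *TM7SF2*, *EBP* and *DHCR7*. Of all 14777 genes tested, 7499, 7368 and 7314 were higher in numbers 1, 2 and 3.

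*MSMO1*, the C-4 methylsterol oxidase (NCBI gene ID 6307, chr4:165327669-165343164), was at 51.4, 51.1 and 50.1 CPM with control siRNA and 63.4, 68.4 and 72.9 CPM with KIFC1 siRNA. The control libraries were nearly equal and the KIFC1 siRNA libraries all lay above them. The log2 fold change was 0.42 ± 0.11 (SE; adjusted p = 0.115) and with the block 0.42 ± 0.09 (SE; adjusted p = 0.00483 in edgeR). *SC5D*, the lathosterol oxidase (NCBI gene ID 6309, chr11:121292771-121313410), was at 114.6, 109.9 and 117.1 CPM, and at 133.5, 139.6 and 160.0 CPM. The groups did not overlap, and the blocked log2 fold change was 0.34 ± 0.08 (SE; adjusted p = 0.0130, or 0.251 without the block, in edgeR).

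*SQLE*, the squalene epoxidase, which is rate-limiting after mevalonate (NCBI gene ID 6713), was at 209.0, 206.1 and 206.4 CPM with control siRNA and 250.3, 256.1 and 245.1 CPM with KIFC1 siRNA. It had the smallest relative spread among the 6 genes that passed, with 207 ± 1.59 and 250 ± 5.55 CPM (SD, n = 3). The blocked log2 fold change was 0.27 ± 0.08 (SE; adjusted p = 0.0301, or 0.316 without the block, in edgeR). *FDFT1* was at 260.0, 256.7 and 223.0 CPM, and at 287.7, 269.8 and 258.0 CPM, with a log2 fold change of 0.14 ± 0.10 (SE; adjusted p = 0.781, or 0.343 with the block). *FDFT1* was higher within all 3 numbers, although KIFC1 siRNA replicate 3 lay inside the control range. *CYP51A1*, the lanosterol demethylase, was also higher within all 3 numbers (0.19 ± 0.10, SE, adjusted p = 0.670, or 0.200 with the block).

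The sterol reductases *TM7SF2* and *DHCR7*, the isomerase *EBP* and the demethylation enzymes *NSDHL* and *HSD17B7* did not pass, with log2 fold changes of 0.03 to 0.20.

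*LSS* was at 9.96, 8.77 and 13.5 CPM with control siRNA and 21.8, 10.1 and 10.9 CPM with KIFC1 siRNA. The fitted value of 0.41 ± 0.27 (SE; adjusted p = 0.747) rested on KIFC1 siRNA replicate 1 and was -0.03 without that library. Some counts of this branch can be split with copies elsewhere. Of the 32-base words, 59.5% for *HSD17B7* and 48.8% for *CYP51A1* also occurred on primary chromosomes outside the gene, as did 28.4% for *SCD* and 20.6% for *FDPS*. The shares were 13.2% for *MSMO1*, 9.996% for *SC5D*, 5.72% for *IDI1* and at most 9.33% for the remaining genes. Genes on the opposite strand overlap the spans of *SREBF1* (*RAI1*), *IDI1* (*IDI2-AS1*) and other genes of the set, among them *CYP51A1*, *MVK* and *FDPS*. Without a stated strand setting, reads from stretches that such genes share cannot be told apart.

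**Figure D3:**
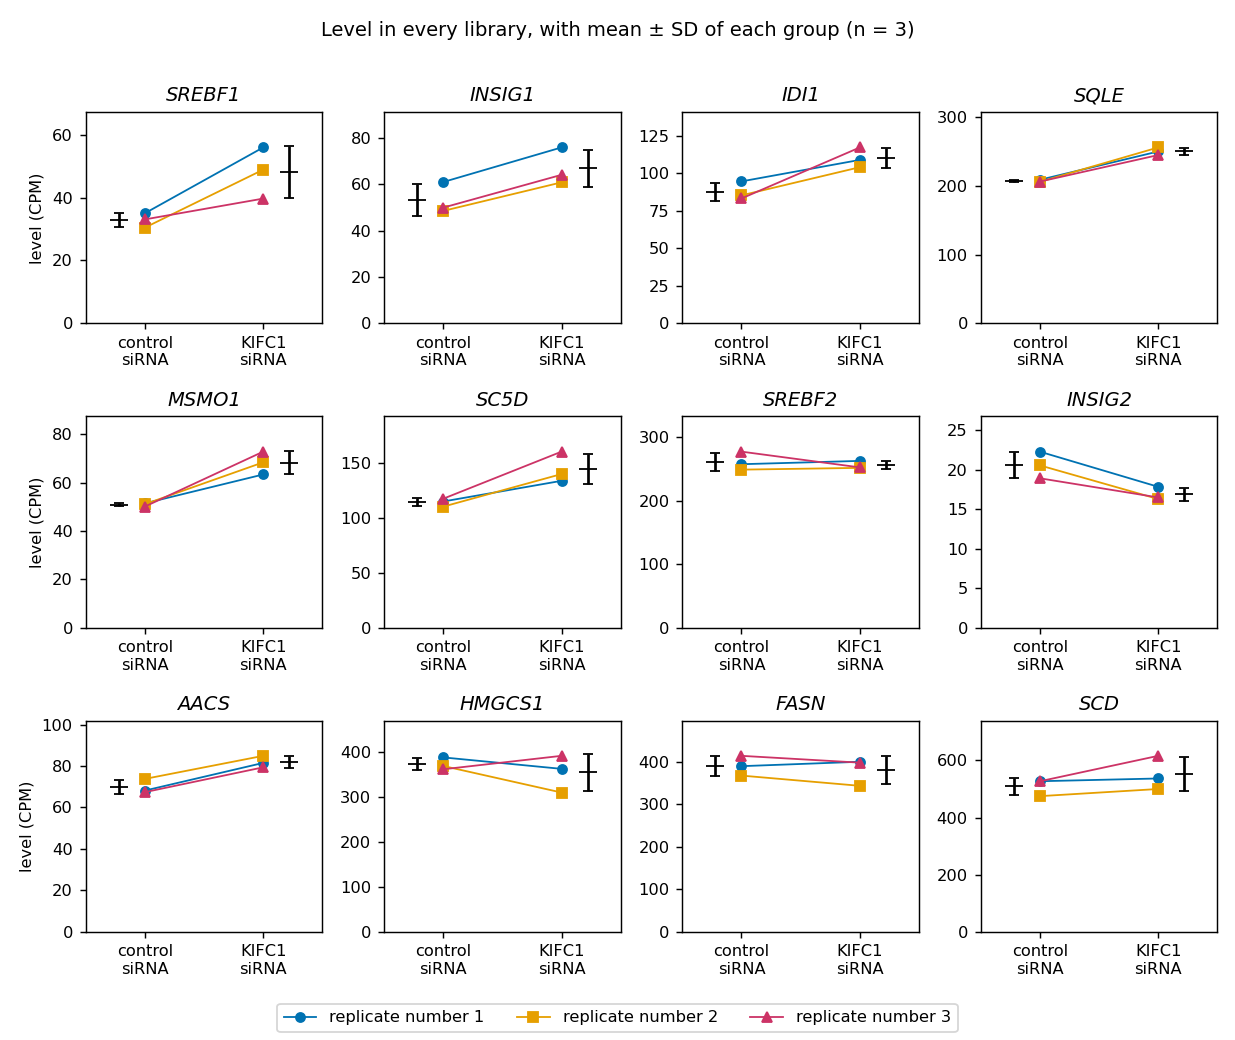
Level in CPM of 12 genes in every library, with lines joining the libraries of the same replicate number and the mean ± SD of each group beside them (n = 3). The first 6 panels are the genes that rose with the block, where every line climbs, and the other 6 are genes that did not pass.

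*STARD4*, which carries cholesterol between membranes in the cytosol and is also induced by SREBPs, was lower within numbers 1 and 2 and higher within number 3 (-0.14, -0.32 and 0.19 on the log2 scale). Its fitted log2 fold change was -0.07 ± 0.14 (SE; adjusted p = 0.938).

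Of the 7 genes of fatty acid synthesis and desaturation, 0 passed in edgeR with or without the block, and 0 had an unadjusted p under 0.05 in either fit. Their median log2 fold change was -0.09, with 2 positive and 5 negative, and it was 0.0069 without control siRNA replicate 3. *SCD* was at 527.3, 475.0 and 527.1 CPM with control siRNA and 536.9, 500.1 and 616.2 CPM with KIFC1 siRNA (log2 fold change 0.11 ± 0.11, SE, adjusted p = 0.851). *ACLY* was at 494.8, 463.7 and 478.7 CPM, and at 482.4, 402.0 and 470.3 CPM (-0.09 ± 0.10, SE, adjusted p = 0.892). The groups overlapped for *SCD* and for *ACLY*.

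*FASN*, the fatty acid synthase and a standard SREBP-1c target, was at 389.5, 367.4 and 413.8 CPM with control siRNA and 399.9, 343.3 and 397.8 CPM with KIFC1 siRNA (log2 fold change -0.04 ± 0.10, SE, adjusted p = 0.963). *ELOVL6* was at 19.5, 21.8 and 23.7 CPM, and at 21.1, 22.3 and 28.5 CPM, and its difference of 0.15 on the log2 scale had an adjusted p of 0.859. The neighbouring desaturase genes *FADS1* and *FADS2* lie head to head on chromosome 11 and overlap. *FADS1* was at 203.5, 193.7 and 210.7 CPM, and at 178.9, 181.8 and 192.6 CPM. Its groups did not overlap, with a log2 fold change of -0.14 ± 0.10 (SE; adjusted p = 0.772, or 0.392 with the block). *FADS2* was at 248 ± 14.2 and 232 ± 22.5 CPM (SD, n = 3; adjusted p = 0.880). *ACACA* was at 4.44, 2.82 and 9.58 CPM, and at 3.51, 3.95 and 6.001 CPM. Control siRNA replicate 3 held its highest value, and its log2 fold change of -0.33 became 0.31 without that library.

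The 3 replicate numbers did not give the same picture. The median log2 difference of the 32 genes was 0.09 in number 1, 0.16 in number 2 and 0.0030 in number 3, with 25, 24 and 16 genes higher. Over all 14777 genes tested the medians were 0.0041, -0.00096 and -0.0035, with 7499, 7368 and 7314 genes higher. In number 3 the difference ran with the GC content of the transcript. Across the 32 genes Spearman's rho was 0.12, 0.14 and -0.58 for numbers 1, 2 and 3, and across 11577 genes with a mean log2 CPM of at least 2 it was 0.16, 0.27 and -0.56. Genes share libraries and are not independent replicates, so these are descriptions. In number 3, 9 of the 10 genes with the lowest GC content (34.4% to 45.5%) were higher, and 1 of the 10 with the highest (58.1% to 65.5%), which was *SREBF1*. Of the 6 genes that passed with the block, *SC5D* (36.9%), *MSMO1* (37.4%), *IDI1* (37.9%), *INSIG1* (44.8%) and *SQLE* (46.5%) had a GC content below 47% and *SREBF1* (63.2%) did not.

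Taking the GC trend of each library out as an offset, an alternative added after the data had been seen, kept the 6 genes past the threshold with the block. With the block and this offset 8 of the 32 were higher and 1 lower, beside 7.92% and 8.80% of all genes. The 8 were the same 6 with *AACS* and *CYP51A1*, and the lower gene was *INSIG2* (log2 fold change -0.33, adjusted p = 0.0108 in edgeR). In that fit *MSMO1* was at 0.39, *SC5D* at 0.30, *IDI1* at 0.30 and *SREBF1* at 0.56. Without both number 3 libraries, the blocked edgeR fit gave 10 higher and 3 lower, beside 6.38% and 7.97% of all genes. The 10 were the same 6 with *AACS*, *SCAP*, *LSS* and *TM7SF2*, and the 3 were *INSIG2*, *STARD4* and *HMGCS1*.

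Around the set, 110 further genes of lipid metabolism were counted from lists written by hand, of which 93 were abundant enough to be tested. Without the block 0 had an adjusted p under 0.05, where 8 were higher and 2 lower at an unadjusted p under 0.05 in edgeR, beside 4.72% and 4.55% of all genes. With the block 7 were higher (7.53%) and 1 lower, beside 2.75% and 3.07% of all genes. The 9 tested genes of other sterol and isoprenoid synthesis gave 0 calls with the block, and 8 of the 9 had a positive log2 fold change (median 0.07). The 10 tested genes of esterification and lipid droplets gave 0 calls with the block as well, with a median of 0.09. In each of these 2 lists 1 gene was higher at an unadjusted p under 0.05 with the block, beside 1257 of all 14777 genes.

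Of the 15 tested genes of fatty acid activation and oxidation, 3 passed with the block. *ACSL4*, the acyl-CoA synthetase that prefers arachidonate, fell with the block. It was at 44.4, 42.5 and 45.3 CPM with control siRNA and 27.3, 26.7 and 33.8 CPM with KIFC1 siRNA, a log2 fold change of -0.59 ± 0.12 (SE; adjusted p = 0.0515, or 0.000219 with the block, in edgeR). *CPT1A*, which brings fatty acids into mitochondria, was at 36.6, 33.1 and 37.4 CPM, and at 47.8, 44.6 and 61.2 CPM (0.52 ± 0.13, SE, adjusted p = 0.133, or 0.00116 with the block). *PDK4*, a kinase that slows pyruvate oxidation, was at 6.66, 7.95 and 6.92 CPM, and at 8.75, 9.55 and 15.3 CPM (0.64 ± 0.22, SE, adjusted p = 0.313, or 0.0225 with the block). For each of these 3 genes the groups were apart, and the other 12 did not pass.

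Among the 22 tested genes of other fatty acid synthesis, 20 had a positive log2 fold change (median 0.07) and 2 rose with the block. *MLX*, the partner of the carbohydrate-responsive factor ChREBP, was at 41.7, 36.6 and 34.8 CPM with control siRNA and 51.8, 54.996 and 52.7 CPM with KIFC1 siRNA (0.50 ± 0.11, SE, adjusted p = 0.0777, or 0.00140 with the block, in edgeR). *HSD17B12*, a reductase of very long chain fatty acid elongation, was at 104.6, 97.04 and 104.7 CPM, and at 124.3, 132.7 and 170.1 CPM (0.48 ± 0.13, SE, adjusted p = 0.143, or 0.00106 with the block).

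In each of the other 3 lists 1 gene passed with the block. *PAQR3*, a Golgi protein that tethers SCAP and SREBP, was among 14 tested genes of SREBP processing and degradation, at 138.7, 135.9 and 144.3 CPM, and at 164.6, 150.4 and 193.3 CPM (log2 fold change 0.28 ± 0.11, SE, adjusted p = 0.455, or 0.0496 with the block, in edgeR). *LPCAT3*, a phospholipid acyltransferase and LXR target, was among 8 tested genes of efflux, oxysterols and LXR. It was at 79.0, 74.1 and 77.4 CPM, and at 96.8, 102.8 and 92.5 CPM (0.34 ± 0.10, SE, adjusted p = 0.220, or 0.0187 with the block). *GRAMD1C*, a sterol transfer protein, was among 15 tested genes of cholesterol uptake and transport, at 0.540, 0.0626 and 0.272 CPM, and at 1.15, 1.05 and 0.857 CPM (1.77 ± 0.51, SE, adjusted p = 0.198, or 0.0219 with the block). It rested on few reads.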

How the data were processed

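RNA of H146 cells was sequenced on day 2 in 3 control siRNA and 3 KIFC1 siRNA libraries. Per the submitters' processing notes, the authors aligned reads to GRCh38 with HISAT2 2.2.1 and made counts per gene with featureCounts 2.0.8, without normalization. Annotation, strand setting and handling of reads with several alignments are not given in the sources used here. Of 28395 gene IDs, 27745 were matched to RefSeq symbols.

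The test was edgeR 4.0.16 under R 4.3.3 (filterByExpr, TMM, robust quasi-likelihood fit, Benjamini-Hochberg over 14777 genes, *KIFC1* kept in). CPM use TMM-scaled library sizes, and standard errors are the log2 fold change over the square root of F. The study names DESeq2 (1.42.0 here), which was an alternative, as were limma 3.58.1, other scalings and filters, and leaving out libraries. Fits with the GC offset, without mitochondrial genes, or without both libraries of a number were chosen after seeing the data. Code was tested on simulated data.

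After removal of group means, libraries of the same number correlated at 0.484, 0.414 and 0.491 across 11758 genes, and others at -0.457 to 0.0234, so blocked values are printed. The labels state no pairing.

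Genes and lists were chosen with earlier results of these data known. Values per library are given for genes with an unadjusted p under 0.05, or an adjusted p under 0.05 with or without the block, for the 3 highest and 3 lowest by fold change, and for the 3 most and 3 least abundant per length. Of the further lists, genes with an adjusted p under 0.05 in either fit were named. Values of *SREBF2*, *SCAP*, *HMGCS1*, *CYP51A1*, *STARD4*, *FASN*, *FADS1* and *FADS2* were added after their values were seen. Differences within a replicate number use log2 CPM with a prior count of 2. The GC offset is a lowess trend of level on GC content per library. Transcript words of 32 bases were looked up on 261 alternate sequences and the primary chromosomes of GRCh38. Tables and figures used Python 3.11.15, numpy 2.4.6, pandas 2.3.3 and matplotlib 3.10.9. Transcript lengths and GC content came from GENCODE 44, with GC content for 96.9% of tested genes.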

Additional observations from a re-analysis of the deposited data

How the results depend on the processing

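The alternatives were run for 15 genes of the set, those named by the rule, and the direction turned for 2 of these. The log2 fold change of *ACACA* (-0.33) was 0.306 without control siRNA replicate 3 (-0.647 to 0.306 with 1 library left out) and 0.0458 with the block without both number 3 libraries, and that of *LSS* (0.41) was -0.0325 without KIFC1 siRNA replicate 1 (-0.0325 to 0.607 with 1 library left out) and -0.0596 with the block without both number 1 libraries. The cause was not tested.

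The counts of calls depended on the model. With an adjusted p under 0.05, genes of the set that were higher numbered 0 without the block, 6 with the replicate number as a block, 5 in DESeq2 with the block (all but *INSIG1*), 2 in DESeq2, 1 without a filter on low counts and 1 with the GC offset. The count was 8 with the GC offset and the block, and 0, 1 and 10 with the block without both libraries of number 1, 2 and 3. With 1 library left out it was 0 to 2, the 2 without KIFC1 siRNA replicate 3. Lower genes numbered 0, except 1 with the GC offset and the block and 3 with the block without number 3. At an unadjusted p under 0.05, 7 were higher and 1 lower in the fit without the block, beside 4.72% and 4.55% of all genes. Higher genes were 12 with the GC offset and the block and 12 with the block without number 3, and 4 to 9 with 1 library left out. Lower genes were 3 and 4 in those 2 fits, and 0 in DESeq2, in DESeq2 with the block, without a filter and with the block without number 1, and 0 to 1 with 1 library left out. The share of all genes at this threshold was not taken in the 2 fits with 12 higher genes. At an adjusted p under 0.05 they called 7.92% and 6.38% of all genes higher, and 8.80% and 7.97% lower. Counts of the set from different fits are therefore not like for like.

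Over all genes, 48 were higher and 55 lower. The block gave 407 and 454, DESeq2 126 and 148, DESeq2 with the block 217 and 291, no filter 121 and 144, the GC offset 141 and 147, and the GC offset with the block 1134 and 1260. The block without number 1, 2 and 3 gave 142, 212 and 944 higher and 145, 267 and 1179 lower genes. With 1 library left out, 9 to 194 were higher and 15 to 274 lower, lowest without control siRNA replicate 3 and highest without KIFC1 siRNA replicate 3.

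The median of the mevalonate genes (0.06) was -0.0145 with the block without number 2, and -0.0072 to 0.13 with 1 library left out. The median of the squalene to cholesterol genes (0.19) was 0.0981 to 0.216 with 1 library left out. That of the fatty acid genes (-0.09) was -0.0373 and 0.0034 with the block without number 2 and 3, and -0.0978 to 0.0069 with 1 library left out. Limma-voom, DESeq2's size factors, library size only, leaving out mitochondrial genes and a minimum of 10 counts in every library gave 0 calls in the set. The log2 fold change of *KIFC1* (-3.66, adjusted p = 0.0739) had an adjusted p under 0.05 with the block (-3.65), in limma-voom (-3.14), without a filter (-3.66), with the GC offset (-3.64), with the GC offset and the block (-3.62), and with the block without number 2 (-4.39) or 3 (-2.93). With 3 libraries per group, the standard errors of 0.09 to 0.38 on the log2 scale limit what was detectable, and a gene that did not pass is not shown to be unaltered.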
